A study of Arabidopsis thaliana with 23 samples.

Results

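REF6-GFP summits that lie in no protein-coding gene body make up 763 of the 5393 summits called with DSG in Arabidopsis thaliana flowers, or 14.1% (Wilson 95% interval 13.2 to 15.1%). A summit is the base of highest signal in a peak of chromatin immunoprecipitation with sequencing. A summit was a member where it fell between the annotated ends of no coding gene on either strand. Members were chosen by the summit positions of the REF6-GFP list with DSG, so their positions, folds and widths are given as a description. All samples were unopened flowers of 5-week-old plants of the Col0 background. REF6-GFP was precipitated through its GFP tag from the ref6-3 mutant carrying a REF6-GFP transgene, with DSG (3 samples) and without it (3 samples). DSG is a crosslinking reagent that links proteins together. For REF6-ZnF-GFP, DSG was used both in ref6 (3 samples) and in the elf6-3ref6Cjmj13G triple mutant (2 samples). In the triple mutant it was expressed under the REF6 promoter. For the ref6 samples the genotype entry names REF6-GFP and the title REF6-ZnF-GFP. H3K27me3, the trimethylation of lysine 27 on histone H3, was profiled in wild-type plants (2 samples) and in the same triple mutant without a transgene named (2 samples). Each list was called on the pooled samples of a group, so replicate errors cannot be given, differences between genotypes have no replicate check, and no test was made. Wilson intervals cover counting error over summits or genes only, and read depths were not used here.

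REF6 is a Jumonji-type histone demethylase that removes methyl groups from H3K27me3, the mark that Polycomb repressive complex 2 places on silenced genes. It reaches DNA through zinc fingers at its C-terminal end. ELF6 and JMJ13 are demethylases of the same mark, and the triple mutant carries mutations in the genes of all 3. Sites between coding genes can lie in promoters, beyond the ends of genes, in genes for noncoding RNA, or in pseudogenes, which are degenerate copies of genes and transposons. The gene table used here gives no strand, so the side of a gene on which a summit lay is not given.

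Most of the 763 summits lay close to a coding gene. A coding gene was within 1 kb of 620 of them (81.3%, 78.3 to 83.9%), and 143 (18.7%, 16.1 to 21.7%) lay farther away. Of all bases outside coding genes, 44.5% were within 1 kb of one. The median distance to the nearest coding gene was 331 bp, and the most remote summit was 34480 bp from one. Summits were densest next to genes, at 40.4 per Mb within 100 bp of a gene body, 8.90 per Mb between 1 and 2 kb and 1.09 per Mb beyond 5000 bp. Coding genes lay within 1 kb on both sides of 301 summits and on 1 side of 319. The share of summits outside coding genes ran from 13.0% on chromosome 1 to 16.4% on chromosome 3.

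**Figure D1:**
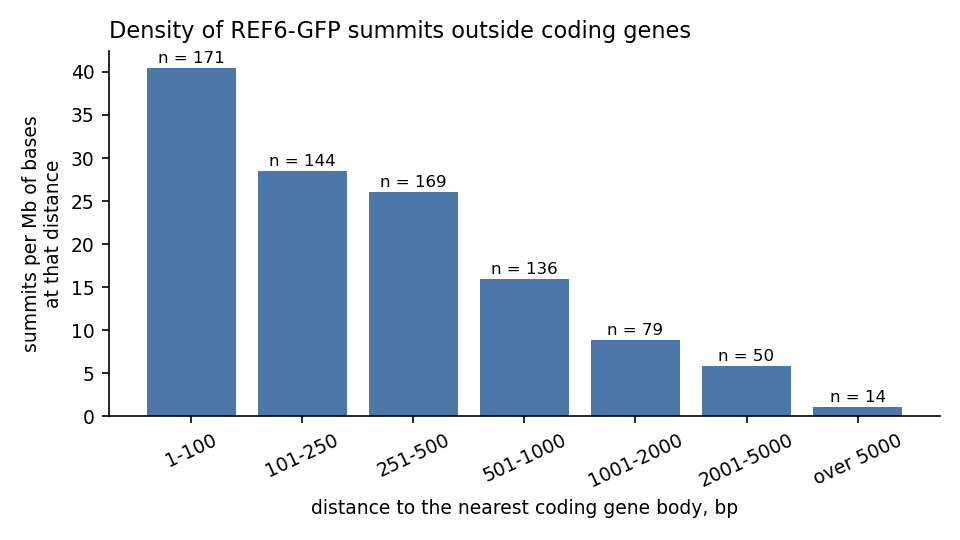
Bars show REF6-GFP summits with DSG per Mb of bases (vertical axis) in 7 classes of distance in bp to the nearest coding gene body (horizontal axis), with the number of summits above each bar. Density is highest, at 40.4 per Mb, in the first 100 bp and lowest, at 1.09 per Mb, beyond 5000 bp.

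Peaks of these summits resembled those inside genes in fold and width. The deposited fold enrichment, taken as a ratio of the pooled sample to the authors' control, had a median of 4.21 here and 4.40 for the 4630 summits inside coding genes. The median widths were 650 and 723 bp. Summits farther than 1 kb from a gene had a median fold of 3.65, and the nearer ones 4.27. At 386 of the 763 sites the peak itself reached into a coding gene, and at 145 at least 50% of the peak lay in one. The other 377 peaks touched no coding gene. At the boundary of the rule, the summit nearest to a gene body lay 1 bp outside AT3G53040 (fold 2.70), and the inside summit closest to a gene edge lay 2 bp within AT1G04985 (fold 6.55). Within 25 bp of a gene edge there were 55 summits outside and 61 inside. At the 1 kb limit, the summit at WAK5 lay 1000 bp away (fold 3.67) and that at AT3G28940 lay 1006 bp away (fold 3.89).

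Most of these peaks overlapped one called without DSG, and most of the counterpart summits also lay outside genes. Of the 763 peaks, 576 (75.5%, 72.3 to 78.4%) overlapped a peak called without DSG by at least 1 bp, where 79.6% of all 5393 peaks did. The nearest counterpart summit was a median of 19.5 bp away and lay outside coding genes at 548 of the 576 sites (95.1%, 93.1 to 96.6%). Where the summit with DSG was more than 100 bp from a gene, this held at 441 of 443 sites, and closer to genes at 107 of 133. All 104 counterparts of the summits farther than 1 kb also lay outside coding genes. Among 3719 summits inside genes with a counterpart, 22 had it outside.

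Other annotated genes held 173 of the 763 summits (22.7%, 19.8 to 25.8%). A noncoding RNA gene covered 104 summits, although such genes make up 2.93% of the bases outside coding genes. A pseudogene covered 70 summits, 1 of which also lay in a noncoding RNA gene, and pseudogenes make up 18.9% of those bases. Of the 10.35 Mb of such pseudogene bases, 9.60 Mb lay farther than 1 kb from coding genes, where summits were sparse. By annotated type, 67 summits lay in long noncoding RNA genes, 30 in genes of the type misc_RNA, 11 in the type ncRNA, 2 in transfer RNA genes and 1 in a small nucleolar RNA gene. Transcribed pseudogenes held 37 and other pseudogenes 33. Beyond 1 kb from coding genes, 60 of 143 summits (42.0%, 34.2 to 50.1%) lay in such a gene, as did 33.9% of the bases there. Within 1 kb the values were 113 of 620 (18.2%, 15.4 to 21.5%) and 6.65% of bases. A pseudogene without a noncoding RNA gene held 35 of the 143 summits beyond 1 kb (24.5%, 18.2 to 32.1%), where pseudogenes make up 31.6% of bases. Within 1 kb it held 34 of the 620 (5.48%, 3.95 to 7.57%). For noncoding RNA genes without a pseudogene the counts were 24 of 143 and 79 of 620.

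The highest fold in a long noncoding RNA gene was 21.3, in AT2G07055, at a peak on chromosome 2 (7927428 to 7928352, TAIR10) that lay 174 bp from AT2G18220. Neither genotype had a domain at that summit. In the noncoding gene AT4G09240, next to the ascorbate peroxidase gene APX5, the fold was 14.4 (chromosome 4, 17026555 to 17028017), and a triple mutant domain of 1441 bp covered the summit without touching a coding gene. A peak with a fold of 15.2 lay in the misc_RNA gene AT5G00715, 570 bp from GRF8, which encodes a 14-3-3 protein that binds phosphorylated partners, and had no domain. The leading ncRNA gene was AT1G52615, with a fold of 10.8 (chromosome 1, 19600488 to 19602162) and a triple mutant domain that touched no coding gene. Of pseudogenes, AT2G24660 had a fold of 16.6 and AT2G05980 16.2. The latter lay 5042 bp from MOD1, an enoyl reductase gene of fatty acid synthesis, and a triple mutant domain of 2031 bp covered it alone. The next pseudogene summit, in AT3G28705 (fold 15.6, chromosome 3, 10767065 to 10768317), lay in no domain. Triple mutant domains covered 63.7% of that peak but not its summit. A summit in the pseudogene AT5G33382 (fold 15.3, chromosome 5, 12618694 to 12620315) lay 15127 bp from the nearest coding gene, AT5G33370, in a triple mutant domain alone. In transcribed pseudogenes, the summits beside AT5G09711 and the MADS-box gene AGL101 (both fold 8.47) lay in triple mutant domains alone, and both genes were gained. The transcribed pseudogene AT3G16415, beside the nitrile-specifier gene NSP4, had a fold of 9.32.

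Most of these summits lay outside H3K27me3 domains in wild-type flowers, and many lay inside one in the triple mutant. A wild-type domain covered 67 of 763 summits (8.78%, 6.97 to 11.0%) and a triple mutant domain 323 (42.3%, 38.9 to 45.9%). Domains of both genotypes covered 65, the wild type alone 2, the triple mutant alone 258 (33.8%, 30.5 to 37.2%) and neither 438. Among all 5393 summits, 7.34% were in a wild-type domain, 36.3% in a triple mutant domain alone, 7.27% in domains of both and 56.3% in none. The share in triple mutant domains alone was thus near this background, and summits inside coding genes gave 36.7% (35.4 to 38.1%). The bases outside coding genes were distributed otherwise, with 18.2% in wild-type domains and 2.44% in triple mutant domains alone.

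**Figure D2:**
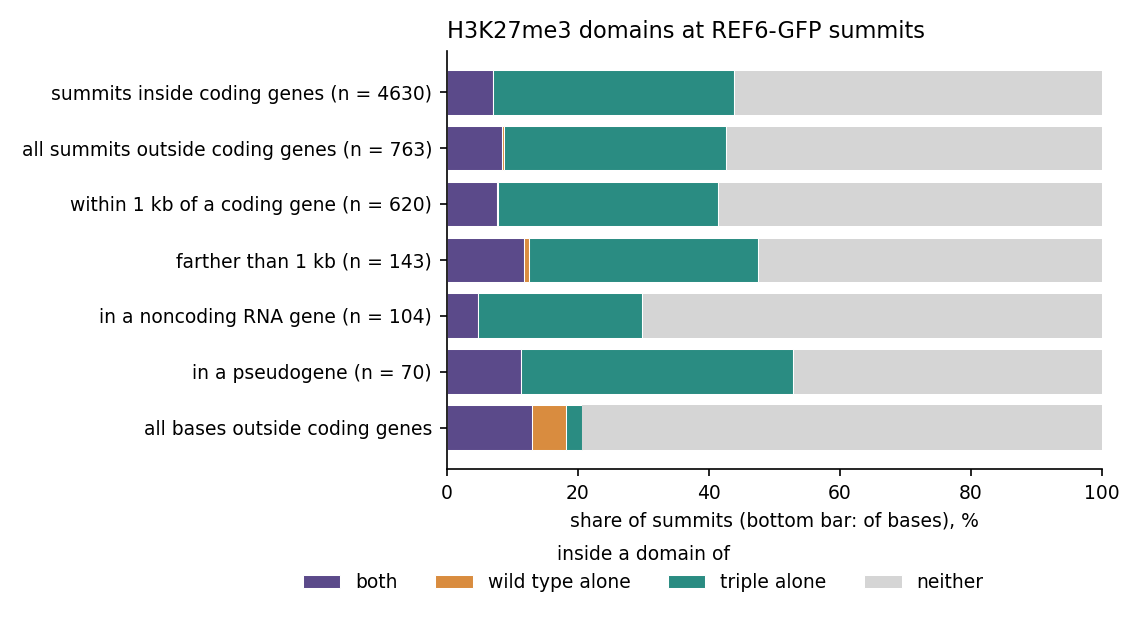
Horizontal bars divide the summits of each set, named with its n on the vertical axis, by whether a domain of both genotypes, the wild type alone, the triple mutant alone or neither covers them, in percent, with the bases outside coding genes at the bottom. Triple mutant domains alone cover 33.8% of summits outside coding genes and 2.44% of the bases.

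The share in triple mutant domains alone was 33.5% (29.9 to 37.4%) of the 620 summits within 1 kb of a coding gene and 50 of the 143 (27.6 to 43.1%) farther away. In noncoding RNA genes 26 of 104 summits (17.7 to 34.1%) were in such domains, and in pseudogenes 29 of 70 (30.6 to 53.1%). These intervals overlap. Among the 143 summits farther than 1 kb, 28 of the 60 in another annotated gene (34.6 to 59.1%) and 22 of the 83 in none (18.2 to 36.9%) were in a triple mutant domain alone. With coding genes within 1 kb on both sides, 111 of 301 summits (31.6 to 42.5%) were, and with a gene on 1 side 97 of 319 (25.6 to 35.7%). By distance the share lay between 26.0 and 41.8%, in no order, while the share of bases in such regions went from 6.29% within 100 bp of genes to 0.217% beyond 5000 bp. The class beyond 5000 bp held 14 summits, 4 of them in such a domain. Wild-type domains covered 12.6% (8.11 to 19.0%) of the summits farther than 1 kb and 7.90% (6.03 to 10.3%) of the nearer ones. Of the bases outside coding genes, they covered 13.8% farther than 1 kb and 23.8% nearer. The share of remote summits was thus near that of bases, and the share of nearer summits was below it.

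**Figure D3:**
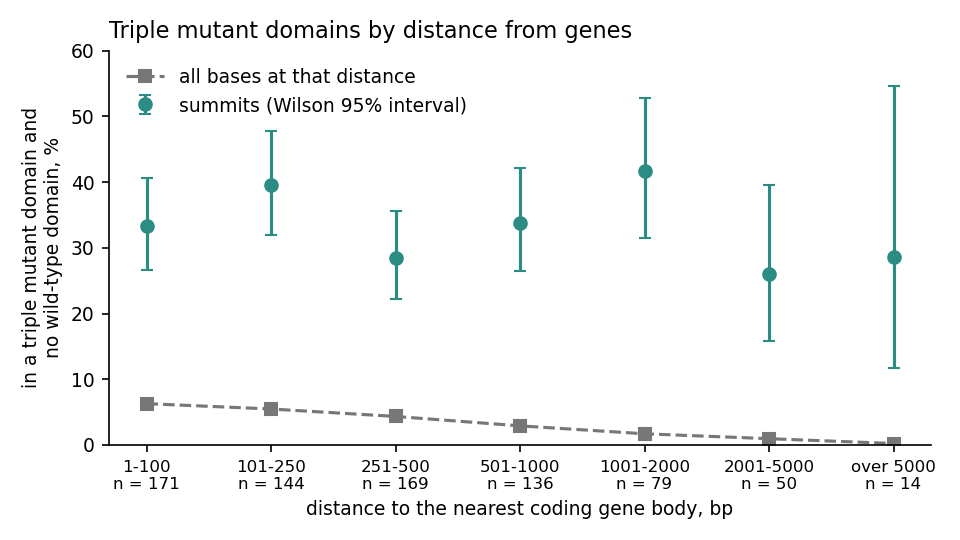
Points give the percent of summits in a triple mutant domain and no wild-type domain (vertical axis) by distance in bp to the nearest coding gene body (horizontal axis), with Wilson 95% intervals, and squares give the same for all bases. Summits lie between 26.0 and 41.8% at every distance, and bases between 0.217 and 6.29%.

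The strongest peaks were most often in triple mutant domains. With all 5393 peaks split into 5 equal groups by fold, 28.2% (21.9 to 35.6%) of the summits outside genes in the lowest group were in a triple mutant domain alone, against 44.2% (36.7 to 52.1%) in the highest. For summits inside genes these shares were 24.5% (21.8 to 27.3%) and 55.7% (52.5 to 58.9%). In wild-type domains the shares outside genes were 12.3% in the lowest group and 1.92% in the highest, with 3 of 156 summits. The second highest group held 8.63% (5.01 to 14.5%) of its summits outside genes in wild-type domains and 3.09% (2.16 to 4.41%) of those inside.

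Wild-type domains came closer to summits outside genes than to those inside. At the summit 8.78% of sites outside genes were covered in the wild type, and 1 kb away 21.6% were covered towards the nearest coding gene and 22.1% in the other direction. For summits inside genes the values were 7.11% at the summit and 10.9 and 11.3% at 1 kb on the 2 sides. The dip in wild-type cover was thus narrower outside genes. Outside wild-type domains but within 1 kb of one lay 232 of the 763 summits (30.4%, 27.3 to 33.8%) and 742 of the 4630 inside genes (16.0%, 15.0 to 17.1%). In the triple mutant, cover was 42.3% at the summit, 44.6% at 1 kb towards the nearest gene and 36.8% at 1 kb away from it, whereas around summits inside genes it was 43.8% at the summit and 26.5 and 27.5% at 1 kb. Among the 232 summits close to a wild-type domain, 135 (58.2%, 51.8 to 64.3%) were in a triple mutant domain alone, and among the 464 more than 1 kb from one, 123 (26.5%, 22.7 to 30.7%). Inside coding genes these shares were 476 of 742 (60.6 to 67.5%) and 1225 of 3559 (32.9 to 36.0%). Of the pseudogene summits close to a wild-type domain, 19 of 22 were in a triple mutant domain alone, and of those more than 1 kb from one, 10 of 40. For summits in noncoding RNA genes these counts were 8 of 16 and 18 of 83. The highest triple mutant value near summits outside genes was 45.2%, 0.6 kb on the side of the nearest gene.

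**Figure D4:**
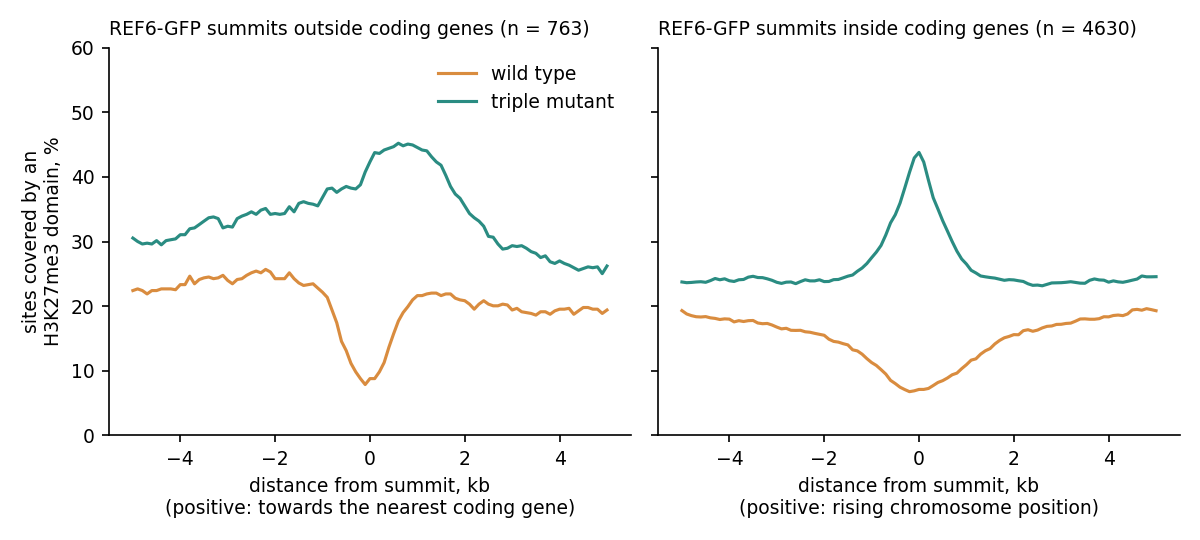
Lines give the percent of sites covered by an H3K27me3 domain of the wild type or the triple mutant (vertical axis) by distance in kb from the summit (horizontal axis), for summits outside coding genes (left, turned so that the nearest gene is at positive distances) and inside (right, along the chromosome). Wild-type cover dips to 8.78% at summits outside genes and is 21.6 and 22.1% at 1 kb, and triple mutant cover is 44.6% at 1 kb on the side of the gene and 36.8% at 1 kb on the other, whereas at 5 kb it is 26.2 and 30.5%.

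Many of the triple mutant domains at the 258 summits also touched a wild-type domain. Of these summits, 93 (36.0%, 30.4 to 42.1%) lay in a domain that touched no wild-type domain, against 52.9% (50.5 to 55.2%) of the 1701 such summits inside genes. The domains had a median width of 3888 bp here and 2415 bp at the summits inside genes. In all, 243 domains held the 258 summits, 195 of them held no summit inside a coding gene, and 42 touched no coding gene. Among the 87 domains that touched no wild-type domain, 80 held no summit inside a coding gene, 44 touched a coding gene that gained the mark, and 28 touched no coding gene. Shares over all 9391 triple mutant domains are not given here, so these domain counts show no excess or lack.

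A coding gene was called gained where domains covered less than 10% of its body in wild-type flowers and 50% or more in triple mutant flowers, lost in the reverse case, and marked in both where both were at least 50%. Of all 27444 coding genes, 6.29% were gained, 0.565% lost and 22.1% marked in both. The 763 summits had 737 distinct nearest coding genes. Of these, 125 were gained (17.0%, 14.4 to 19.8%), 2 were lost and 178 were marked in both (24.2%, 21.2 to 27.4%). Within 1 kb, 118 of 610 nearest genes were gained (19.3%, 16.4 to 22.7%), and beyond 1 kb 10 of 136 (7.35%, 4.04 to 13.0%), close to the share of all genes. Of the 610, 536 had no summit in their body, and 98 of those were gained (18.3%, 15.2 to 21.8%). A peak could still overlap the body of such a gene, as 386 of the 763 peaks reached into a coding gene. Genes with a summit in the body were gained in 21.5% (20.3 to 22.7%) of 4459 cases and marked in both in 9.24% (8.42 to 10.1%). Only genes with less than 10% of the body covered in the wild type could be gained. Of such genes, 27.8% (23.8 to 32.3%) of 424 nearest genes within 1 kb were gained, and 11.6% (6.44 to 20.1%) of 86 beyond 1 kb. With a summit in the body the share was 26.25% (24.85 to 27.7%) of 3646, and over all coding genes 8.88% of 19449. The nearest gene was gained at 95 of the 258 summits in triple mutant domains alone and at 34 of the 438 in no domain. Summits and genes were classed by the same domain lists, and a single domain can cover both. This difference is therefore partly fixed by construction, as are the counts of flanking genes below. At 138 of the 258 summits neither flanking coding gene was gained, at 99 one of the flanking genes was, and at 21 both were.

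The 10 summits with the highest fold within 1 kb of a gene had peaks that reached into coding genes. From 36.5% (next to AT2G18220) to 93.5% (next to WRKY60) of each peak lay in coding gene bodies, with 86.7% at NPC3 and 60.9% at XTH12. The folds of these summits were 20.9 to 24.7. The highest were next to ROL5, a gene for an enzyme of tRNA thiolation (385 bp away, chromosome 2, 18299942 to 18301635, no domain), and next to XTH12, whose product is a xyloglucan endotransglucosylase, an enzyme that remodels cell walls (156 bp away, chromosome 5, 23299572 to 23304190). In the separate list without DSG their folds were 20.2 and 31.1, and those of the other 8 lay between 18.3 and 29.7, with summits 1 to 11 bp from those with DSG. The XTH12 summit lay 805 bp from the nearest wild-type domain, and the zinc-finger gene ZFP2 on the other side of the summit was covered in full in the wild type. In the triple mutant a single domain of 13481 bp on chromosome 5 (23294916 to 23308396) covered ZFP2, the summit, XTH12, XTH13 and XTH25 in full and 83.0% of TCH4, another gene of that enzyme family. The summit of the phospholipase gene NPC3 (fold 23.5, chromosome 3, 835695 to 839008) lay between 2 gained genes, 26 bp from NPC3 and 72 bp from AT3G03510, and a domain of 4240 bp that touched no wild-type domain covered it. Between PELPK2 and PELPK1, which encode repeat proteins of the cell wall, a peak with a fold of 22.0 (chromosome 5, 2958336 to 2960428) lay in a domain of 2742 bp, and both genes were gained, PELPK2 with 63.3% of its body covered. The summit 3 bp from WRKY60, a transcription factor gene of pathogen responses, had a fold of 22.1 and no domain, and neither flanking gene was marked.

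At AT3G55720 and AT2G19650 the summit was outside triple mutant domains, although the nearest gene was gained, with 73.1% and 83.5% of its body covered. AT5G62970 was gained on 1 side of its summit, with 100% of its body covered, while AT5G62960 on the other side was unmarked. AT3G04210 went from 21.7% to 100% coverage, in a triple mutant domain of 11962 bp, and the wild-type domain nearest to the summit was 921 bp away. At AT3G55720 and AT2G19650, triple mutant domains covered 35.1% and 24.7% of the peak but not its summit. Other summits in triple mutant domains with a gained nearest gene and a high fold were at AT4G25433 (fold 20.6), the expansin gene EXPA17 (19.9), AT3G58480 (19.1), the MADS-box gene AGL81 (18.5), AT5G16980 (17.5) and AT1G27270 (16.9). The EXPA17 summit was 122 bp from the gene, and a triple mutant domain of 3999 bp covered all of EXPA17 and 36.6% of AT4G01640. Around AT5G16980 a domain of 6970 bp covered this gene and AER in full and 59.2% of AT5G16960.

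Farther than 1 kb from coding genes, 4 of the 5 leading summits were in triple mutant domains alone. The highest fold was 21.5, 1239 bp from AT1G75620 (chromosome 1, 28392638 to 28393963), between genes marked in both genotypes. The wild-type domain edge was 366 bp from the summit, and a triple mutant domain of 13700 bp ran across it. The next, with a fold of 20.6, lay 1150 bp from SNC1, an immune receptor gene of the nucleotide-binding leucine-rich repeat class (chromosome 4, 9497820 to 9499839). Its domain of 2353 bp reached 30.3% of AT4G16880 and left SNC1 uncovered, and the nearest wild-type domain was 25612 bp away. The summit 1337 bp from AT5G28620 lay in 2 overlapping noncoding genes, and its domain of 1567 bp touched no coding gene. The summit in the pseudogene AT2G24660 lay 479 bp from a wild-type domain, in a triple mutant domain of 5321 bp that covered the gene AT2G24670, which was already marked. The summit next to AT2G44800, with the fourth-highest fold, had no domain. Without DSG the folds of the 5 leading remote summits were 20.1, 21.1, 16.4, 18.0 and 15.0, in the order of AT1G75620, SNC1, AT5G28620, AT2G44800 and AT2G24670.

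**Figure D5:**
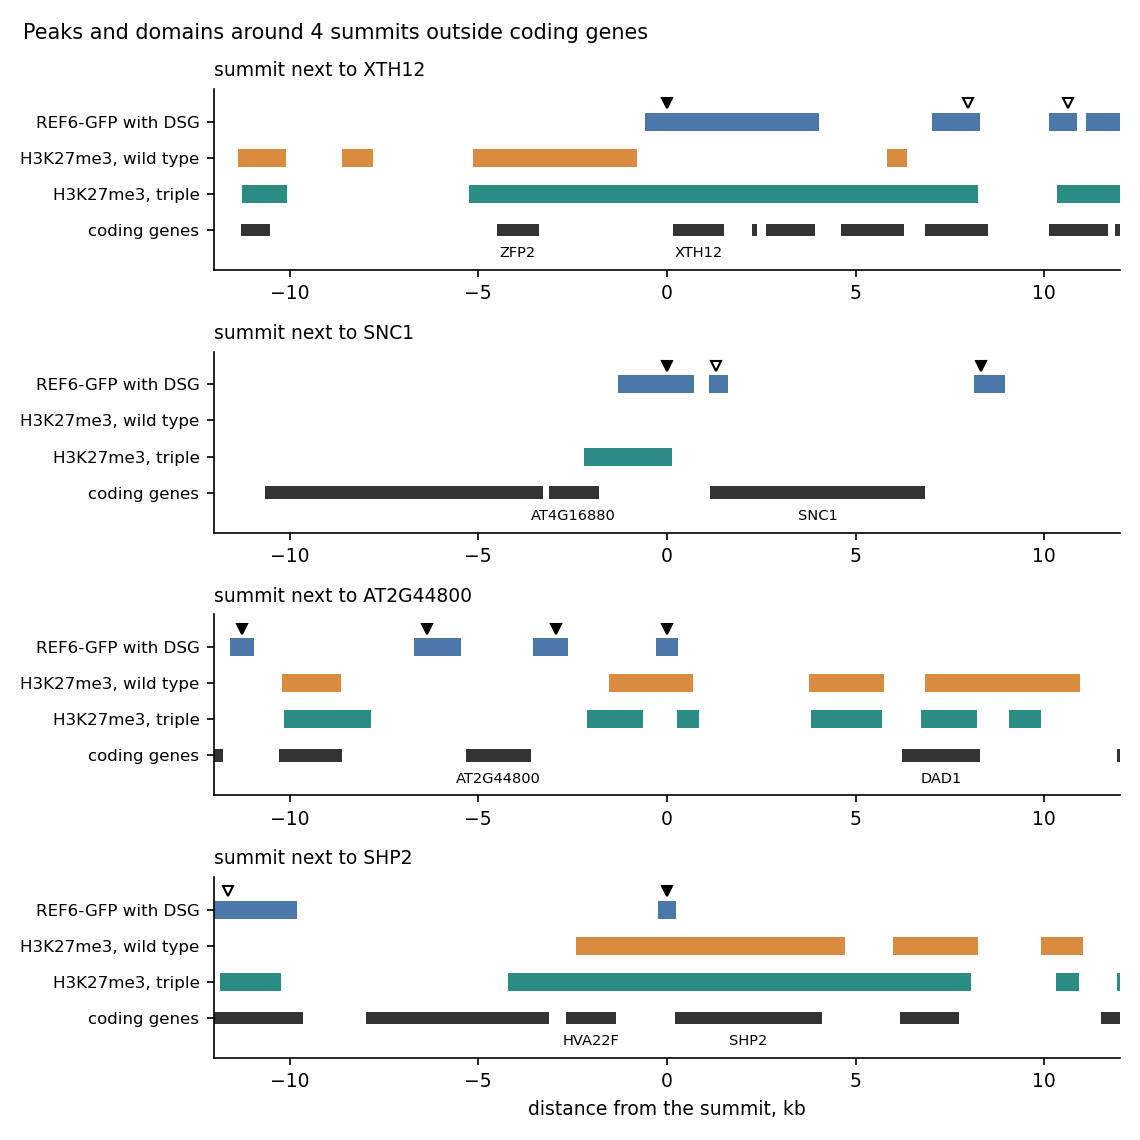
REF6-GFP peaks with DSG, H3K27me3 domains of both genotypes and coding genes are drawn to scale within 12 kb (horizontal axis, distance in kb) of the summits next to XTH12, SNC1, AT2G44800 and SHP2, with filled triangles at summits outside coding genes and open ones at summits inside. At XTH12 and SNC1 the summit is in a triple mutant domain alone, at SHP2 in domains of both genotypes, and at AT2G44800 in a wild-type domain alone.

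The gene AT2G44800 was the nearest coding gene of 3 summits outside genes. The peaks had folds of 17.6 (chromosome 2, 18465459 to 18466695), 14.9 (18468595 to 18469524) and 5.29 (18471856 to 18472445). The first 2 had no domain, and the third lay in a wild-type domain alone, 3600 bp from AT2G44800 and 6223 bp from DAD1. DAD1 encodes a lipase of jasmonate synthesis needed for anther opening and was marked in both genotypes. The only other summit in a wild-type domain alone was 619 bp from MYB108, a transcription factor gene of stamen maturation. Domains covered 73.0% of MYB108 in wild-type flowers and 41.8% in the triple mutant, and the wild-type domain at the summit had a −log10 q of 0.838.

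Among the 65 summits in domains of both genotypes the highest fold was 10.3, at AT5G44300. The 67 summits in wild-type domains lay a median of 720 bp inside the domain edge, against 384 bp for the 329 summits inside genes. Next to SHP2, a MADS-box gene of carpels and fruit valve margins, the summit lay 207 bp away with a fold of 7.24 (chromosome 2, 17819669 to 17820136), and SHP2 was covered in full in both genotypes. AOX1B, an alternative oxidase gene of mitochondria, had a summit 312 bp away (fold 7.40) and went from 71.4% to 88.9% coverage. KCS5, a gene of very-long-chain fatty acid synthesis, had one 25 bp away (fold 7.12) and was covered in full in both. The other leading members were at AT1G63210, AT3G14490, AT2G21510, AT1G43810 and AT2G30760, with folds of 7.12 to 8.78. WAK2, a wall-associated kinase gene, was gained with 100% coverage, and the summit 2148 bp from it lay in the pseudogene AT1G21290, in domains of both genotypes.

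The nearest genes were also compared with 9 gene lists made by symbol, against a share of 2.69% of all coding genes that were nearest to a member. Lists made by a family prefix can hold other genes whose symbols start alike. Among 97 auxin genes 5 were nearest to a member, and 3 of these were gained. IAA12 and IAA13, which encode repressors of auxin response, went from 0 to 100% and from 8.19% to 100% coverage, with summits 10 and 187 bp away. The IAA12 summit lay in a triple mutant domain alone and the IAA13 summit in no domain. SAUR20, of a family of auxin-induced growth genes, went from 0 to 100%, 728 bp from its summit, which lay in a triple mutant domain alone. SAUR15 was marked in neither genotype. Of 229 cytochrome P450 genes 11 were nearest, of which CYP72A14 and CYP78A6 were gained (72.1% and 53.9% covered in the triple mutant) and 6 were marked in both. The summits at CYP72A14 and CYP78A6 lay in no domain. The highest fold among P450 genes was 14.5, at CYP77B1 (1490 bp away), where the gene was marked in both genotypes and the summit in neither. CYP82G1, an enzyme gene of volatile homoterpene synthesis, was covered in full in both, and its summit, 1765 bp away in a pseudogene, lay in a triple mutant domain alone. Of 61 cell wall genes 2 were, XTH12 and EXPA17, both gained. Of 378 genes of transcription factor families 13 were, and NAC027, NAC036 and ERF53 were gained. NAC036 had the highest fold of the 3 (10.2, chromosome 2, 7407858 to 7409009), with its summit 174 bp from the gene in a triple mutant domain. The NAC027 summit also lay in a triple mutant domain alone, and the ERF53 summit lay in no domain. MYB29, a regulator of aliphatic glucosinolate synthesis, was marked in both, with a summit 1950 bp away in a triple mutant domain alone. WRKY39 (fold 9.63), WRKY60 and MYB17 were unmarked in both genotypes. Of 216 genes for cysteine-rich or signalling peptides 3 were, RALFL5, RTFL4 and LCR48, none of them gained. Of 19 floral organ and meristem identity genes 1 was, SHP2. None of 19 flowering time, 27 organ boundary and meristem, and 14 gibberellin genes was nearest to a member, and lists this small cannot show a share below 2.69%. The shares of the other lists were 5.2% (auxin), 4.8% (cytochrome P450), 3.3% (cell wall), 3.4% (transcription factors), 1.4% (peptides) and 5.3% (floral identity). Most of these rest on few genes and were not tested.

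No summit lay in a microRNA gene, although 5 peaks overlapped one, and 12 of 326 microRNA genes had a member summit within 1 kb. MIR156c (448 bp away, fold 4.37) and MIR172d (411 bp, fold 3.07), whose products act on flowering-time regulators, had their summits in domains of both genotypes, and those of MIR156h (17 bp) and MIR167b (41 bp) were in no domain. The highest fold of the 12 was at a summit 649 bp from MIR420, in a triple mutant domain alone. Of the other summits, that near MIR866 (808 bp) was in a triple mutant domain alone, and those near MIR156j, MIR861, MIR830, MIR5651, MIR4221 and MIR404 were in none.

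REF6-ZnF-GFP in the triple mutant had peaks at some of these sites. Such a peak overlapped 194 of the 763 (25.4%, 22.5 to 28.6%), against 38% of all 5393 peaks and 40.1% (38.7 to 41.5%) of those inside genes. The REF6-ZnF list is sparse on chromosomes 4 and 5. On chromosomes 1 to 3 the values were 34.9% (30.7 to 39.3%) of 476 outside and 58.1% (56.2 to 59.9%) of 2806 inside, where 54.7% of all peaks did. Within the peaks outside genes on these chromosomes, 37.3% (32.6 to 42.3%) of those within 1 kb of a gene and 24.7% (17.1 to 34.4%) of those farther away overlapped one. In ref6, 4 of the 763 peaks overlapped a REF6-ZnF peak (0.524%, 0.204 to 1.34%), where 1% of all peaks did.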

How the data were processed

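Of 23 samples in 10 groups, 15 samples in 6 groups have a list of peaks or domains, and the other 8 (inputs and H3) were not analysed here. Per the submitters' processing notes, the tools included Bowtie 1.1.2, Picard 2.60, MACS2 2.1.0 and deepTools, with the build TAIR10. No source used here states the settings or the control input. The deposited lists have no header, so the MACS2 column order was assumed. In it the authors' columns are a score (not used), a fold enrichment (a ratio over the control), a −log10 p-value (not used), a −log10 q-value and, for REF6, the offset of the summit from the peak start. The lists hold 5393 (REF6-GFP with DSG), 4526 (without), 9327 and 332 (REF6-ZnF-GFP in the triple mutant and in ref6), 7914 and 9391 (H3K27me3 in the wild type and the triple mutant) regions. Labels do not say whether samples came from separate plants.

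Summits were placed against 27444 coding and 10455 other nuclear genes of the RefSeq gene table (assembly TAIR10.1). Because its build name differs from that of the lists, no gene coordinates are printed. As a check of the match, moving all summits by 20 kb raised the share outside coding genes from 14.1% to 35.5% or 36.2%, by direction. The table holds no strand and no sequence, so the planned classes upstream and downstream were replaced by within and farther than 1 kb, and promoter letters were not searched. A domain was at a summit where it covered that base, and shares of bases refer to the span from the first to the last coding gene of each chromosome. Named are the 10 members of highest fold within 1 kb and the 5 farther, the 5 highest of each noncoding type and of pseudogenes, the 10 highest in triple mutant domains alone with a gained nearest gene, all in wild-type domains alone, the 10 highest in both, and members nearest to a gene of 9 lists. Not every gene so named is described, and some are not reported here. Lists were matched by symbol or by family prefix, and a digit was required only after WOX, PIN and the transcription factor prefixes. Lists made with the other prefixes can therefore hold unrelated genes whose symbols start alike, which was not checked. MicroRNA genes within 1 kb were added after seeing the data. Members and lists were chosen with earlier results of these data known. Overlaps and intervals were computed in Python 3.11.15 with pandas 2.3.3, numpy 2.4.6 and scipy 1.17.1, and checked on simulated data.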

Additional observations from a re-analysis of the deposited data

How the results depend on the processing

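Shares under other settings are given for 43 values, of which 19 stayed within the 95% interval of the reported value and 24 did not. The share of summits outside coding genes (14.1%) was 13.1% at a REF6-GFP −log10 q of at least 50, 13.1% without DSG, 11.0% at 100 bp or more from genes, 10.9% with every gene type counted as a gene body (chosen after seeing the data) and 6.99% with the whole peak outside. The share farther than 1 kb (18.7%) was 36.6% with a limit of 500 bp, 8.39% with 2 kb, 15.7% at a −log10 q of 50, 24.0% at 100 bp or more from genes and 37.9% with the whole peak outside. Overlap with other genes (22.7%) was 34.1% for whole peaks. The share in triple mutant domains alone (33.8%) was 40.3% at a REF6-GFP −log10 q of 50 and 38.8% without DSG, where summits inside genes gave 44.7% and 39.3%. In wild-type domains (8.78%) it was 6.82% at an H3K27me3 −log10 q of at least 10, 18.6% for any overlap with the peak, 6.35% at a REF6-GFP −log10 q of 50 and 6.89% without DSG. Gained nearest genes (17.0%) were 22.1% at an H3K27me3 −log10 q of 10, 13.0% with 80% coverage required and 24.2% at a REF6-GFP −log10 q of 50. Overlap with REF6-ZnF-GFP in the triple mutant (25.4%) was 17.2% where 50% of the peak was required, 12.7% at a −log10 q of 10 in that list and 34.9% on chromosomes 1 to 3 (chosen after seeing the data). In ref6 (0.524%) it was 0 at a −log10 q of 10. The cause of these shifts was not tested beyond what each setting does by construction. Of 24 named gained genes, 18 kept the call under 3 settings. AT1G27270 and CYP72A14 had no domain at an H3K27me3 −log10 q of 10, and NAC036, CYP78A6, CYP72A14, AT3G55720 and PELPK2 were under 80% coverage.

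No paired analysis was possible because each group has 1 list, taken as a call on pooled samples. For the same reason leaving out a replicate was not run, and neither were the 2 settings for promoter sequence, since no sequence is used here. Intervals treat neighbouring summits as independent. A domain call is present or absent and gives no level of H3K27me3, so a share reflects the depth and threshold of each list as well as the mark.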
